A study of Mus musculus with 119 samples.

Results

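The mRNAs of the 5 NF-kB subunit genes, *Nfkb1*, *Nfkb2*, *Rel*, *Rela* and *Relb*, were followed in mouse bone marrow-derived macrophages (BMDMs) stimulated with lipopolysaccharide (LPS), a cell wall component of Gram-negative bacteria that is sensed by TLR4. Membership was set by gene symbol and by no measured threshold, and the genes are 5 of 18098 genes in the deposited RNA-seq table. All 5 passed the filter on low values. The study asked which LPS-regulated genes depend on the TPL-2 kinase, which relays TLR4 signals to ERK1/2, and on the ERK1/2-regulated transcription factors behind it.

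NF-kB is a dimer of Rel homology proteins that is held in the cytoplasm by IkB proteins and freed when IKK phosphorylates the inhibitor. RelA, c-Rel (the product of *Rel*) and RelB carry transactivation domains, whereas p105 (*Nfkb1*) and p100 (*Nfkb2*) are precursors that are processed to p50 and p52, which lack such a domain, and while unprocessed act as IkB-like inhibitors. p105 also binds TPL-2 and keeps it inactive until IKK triggers p105 proteolysis, so *Nfkb1* encodes both a subunit of the factor and the retainer of the kinase under study. Several subunit genes are themselves NF-kB targets, a feedback well known in LPS-stimulated macrophages.

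All cells were from mice of the C57BL/6(NIMR) strain and were grown from femoral bone marrow for 7 days in L-cell conditioned medium, and all stimulated cells received 100 ng/ml LPS. Wild type (WT) cells were sampled without LPS and after 0.5 h, 1 h (6 libraries each) and 2 h (4 libraries). *Map3k8* D270A/D270A cells express catalytically inactive TPL-2 (6 libraries at each of the same times), and *Elk1*-/-*Elk4*-/- cells lack the ternary complex factors Elk-1 and SAP-1, which ERK1/2 activates (4 at each time). *Nfkb1* SSAA/SSAA cells carry alanines in place of the p105 serines that IKK phosphorylates, so p105 is not degraded upon stimulation and TPL-2 is not released (6 libraries without LPS, at 0.5 h and at 1 h). WT cells treated with PD0325901 at 0.1 µM, an inhibitor of the kinases that activate ERK1/2, were sampled at 10, 40 and 70 min of inhibitor without LPS (3 libraries each) and after 0.5 h and 1 h of LPS (6 each), and vehicle alone (DMSO) was sampled at 10 min without LPS (3 libraries). WT cells treated with RSKi47 at 2 µM, an inhibitor of the ERK1/2-activated kinase RSK, were sampled without LPS (4 libraries) and at 0.5 h (3), 1 h (4) and 2 h (4). RSKi47 had been present for 10 min in the libraries without LPS, and for 40, 70 and 130 min in those with LPS. No RSKi47 group without LPS matches the later times, so LPS and time of inhibitor cannot be told apart in its responses.

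The labels do not say that libraries of a group came from separate cultures or animals, so p-values measure the spread between these libraries only. No LPS-stimulated vehicle group is among these libraries, and 1 set of untreated WT libraries was the reference for all arms. The labels do not say which arms were prepared together with that set, so experiment and condition cannot be told apart. *Elk1* lay at 6.17 to 6.59 in *Elk1*-/-*Elk4*-/- libraries and at 8.55 to 9.49 in all others, and *Elk4* at 5.51 to 5.88 against 6.88 to 8.56. The mutations of *Map3k8* and *Nfkb1* are point mutations, which mRNA levels cannot check. All 7 macrophage markers were well expressed (*Lyz2* highest). Of the 4 genes of the T cell list, *Cd4* was expressed in every arm (7.30 to 8.57 over libraries) and *Cd3e* was near the floor. The 5 libraries farthest from their group medians, by root mean square deviation, were library 2 of *Nfkb1* SSAA/SSAA at 1 h (0.281), library 4 of RSKi47 at 2 h (0.261), without LPS (0.20) and at 1 h (0.198), and library 4 of *Map3k8* D270A/D270A at 2 h (0.211), against a median of 0.119 over all libraries. Without the last, *Nfkb1* and *Nfkb2* at 2 h differed from WT by -0.29 and -0.32, and calls lost without any of these libraries are named beside the result.

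Values are the deposited log2-scale levels. How they were transformed is unknown here, so differences are given on that scale and not as folds, and levels are not compared between genes of different length. In WT cells without LPS, *Rela* was at 11.31 ± 0.02 (SD, n = 6), *Nfkb1* at 11.33 ± 0.03, *Nfkb2* at 11.25 ± 0.05, *Relb* at 9.80 ± 0.06 and *Rel* at 9.04 ± 0.09. In bulk RNA, fewer cells and less RNA per cell cannot be told apart. Over the 25 groups the mean of *Nfkb2* spanned 2.78, that of *Rel* 2.65, *Relb* 2.51, *Nfkb1* 2.26 and *Rela* 1.43. *Nfkb1*, *Nfkb2* and *Relb* had their highest mean in WT cells at 2 h and *Rel* in WT cells at 1 h, whereas *Rela* was highest under RSKi47 at 2 h.

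**Figure D1:**
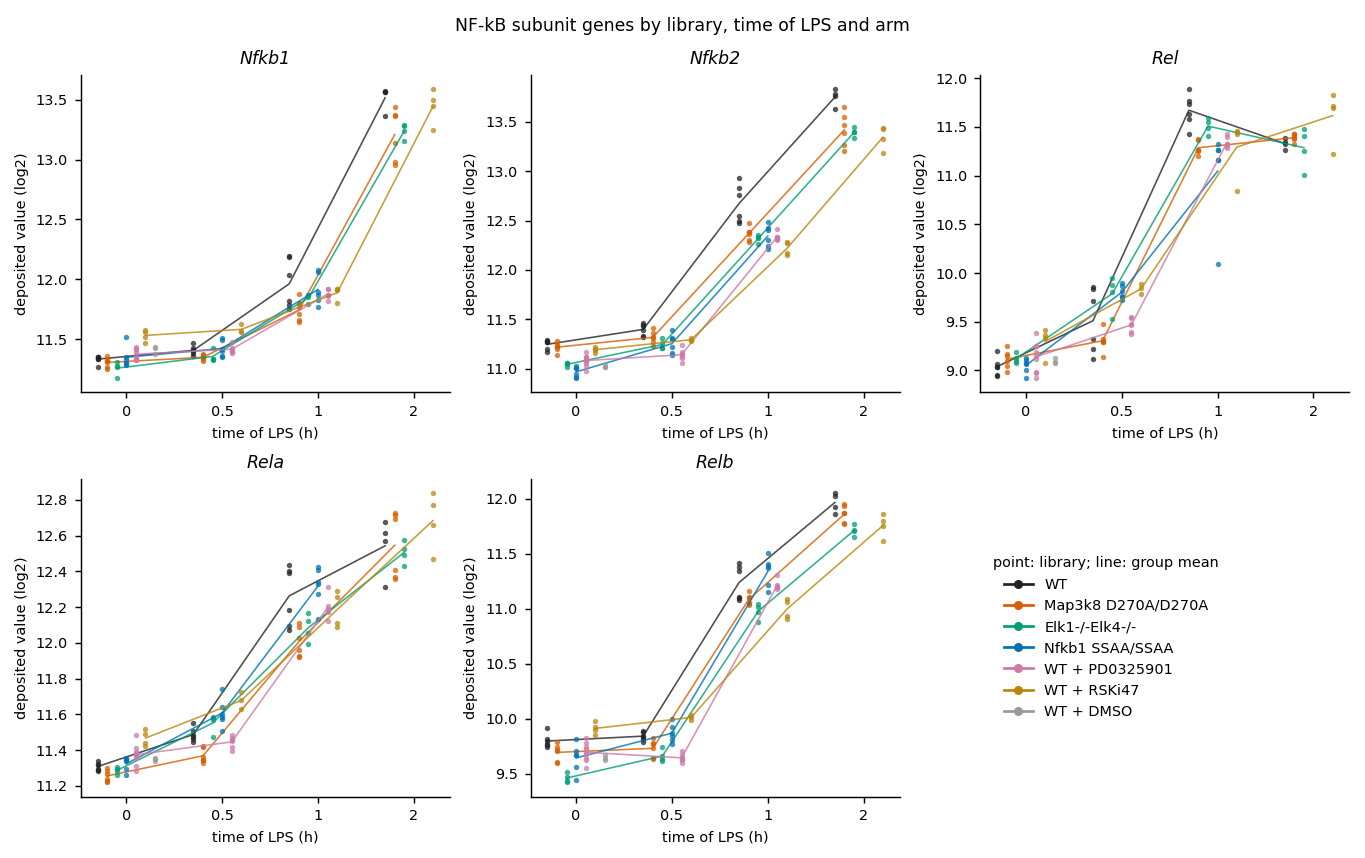
Deposited log2-scale level of each subunit mRNA against hours of LPS, with points for libraries and lines through group means, for WT, the 3 mutant genotypes and both inhibitors (PD0325901 libraries of 10, 40 and 70 min are pooled at 0 h). In every arm sampled to 2 h, *Nfkb1*, *Nfkb2*, *Rela* and *Relb* continued to climb from 1 h to 2 h, whereas *Rel* was already at 11.67 in WT cells at 1 h and at 11.33 at 2 h.

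The question of the WT time course was which subunits LPS raised and when. All 5 mRNAs were higher at 1 h and at 2 h than without LPS, but on different schedules. *Rel* and *Rela* were higher by 0.5 h, and *Rel* was highest at 1 h. *Nfkb2* and *Relb* rose by more than 1 between 0.5 h and 1 h and continued to rise, *Nfkb1* gained most after 1 h, and *Rela* had the smallest rise at 2 h.

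*Rel* encodes c-Rel, the subunit most restricted to blood cells. Its lowest, median and highest WT values were 8.94, 9.04 and 9.20 without LPS, 9.12, 9.52 and 9.85 at 0.5 h, and 11.43, 11.68 and 11.89 at 1 h, and the 4 libraries of 2 h held 11.35, 11.33, 11.26 and 11.38. The 0.5 h range overlapped that of unstimulated cells, the 1 h range lay above both, and all 4 libraries of 2 h lay below all 6 of 1 h. *Rel* was 0.47 higher at 0.5 h (SE 0.084, limma adjusted p = 3.28e-05), 2.63 higher at 1 h (SE 0.084, adjusted p = 2.39e-33) and 2.29 higher at 2 h (SE 0.094, adjusted p = 1.07e-28). From 1 h to 2 h it fell by 0.34 (SE 0.094, adjusted p = 0.00133), the single subunit of the 5 to do so, in a comparison in which 31.7% of all genes tested fell and 33.5% rose. This fall was -0.49 (adjusted p = 4.74e-07) within WT libraries 4 to 6 and -0.16 (adjusted p = 0.143) within libraries 7 to 9, where 1 library of 2 h entered.

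*Rela* encodes the most widely expressed transactivating subunit. It was 0.18 higher at 0.5 h (SE 0.056, adjusted p = 0.0248), 0.96 at 1 h (SE 0.056, adjusted p = 1.32e-21) and 1.24 at 2 h (SE 0.063, adjusted p = 9.84e-25), the smallest 2 h rise of the 5. The 0.5 h call was lost without WT 6 or 8 (adjusted p = 0.0525 and 0.102). The WT libraries of 2 h held 12.57, 12.68, 12.61 and 12.31, and they overlapped those of 1 h (12.07 to 12.44). *Relb* encodes the transactivating partner of p52, and at 0.5 h its level differed by 0.04 from that without LPS (adjusted p = 0.636). It was then 1.44 higher at 1 h (SE 0.046, adjusted p = 1.51e-33) and 2.17 at 2 h (SE 0.051, adjusted p = 1.2e-39), when the libraries held 11.93, 12.05, 12.03 and 11.86, all above the 1 h maximum of 11.42.

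Of the precursor genes, *Nfkb1* differed by 0.07 at 0.5 h (adjusted p = 0.523), rose by 0.63 at 1 h (SE 0.060, adjusted p = 2.55e-13) and by 2.18 at 2 h (SE 0.068, adjusted p = 2.42e-34). Its 1 h libraries spread from 11.75 to 12.20, and the 2 h libraries held 13.56, 13.56, 13.57 and 13.37, far above them. Of its 2 h rise, 1.55 fell between 1 h and 2 h (adjusted p = 4.56e-27), more than in any other subunit. *Nfkb2* was 0.15 higher at 0.5 h, when its libraries lay entirely above the unstimulated ones without passing the test (adjusted p = 0.0612, and 0.0368 with the replicate number as a block). It was 1.43 higher at 1 h (SE 0.055, adjusted p = 7.36e-30) and 2.5 at 2 h (SE 0.061, adjusted p = 5.41e-39), the largest 2 h rise of the 5, with libraries at 13.76, 13.83, 13.78 and 13.63.

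Counted together, 2 of 5 subunits (*Rel* and *Rela*) rose by 0.5 h, when 7.82% of the genes tested did, and *Nfkb2* joined them with the replicate number as a block (adjusted p = 0.0368) or with all libraries in 1 fit (adjusted p = 0.027). At 1 h and 2 h all 5 rose, against 23.8% and 34.7% of genes. A rise of at least 1 on the log2 scale was met by *Nfkb2*, *Rel* and *Relb* at 1 h (3.2% of genes) and by all 5 at 2 h (7.72%). Between 0.5 h and 1 h all 5 rose as well, when 20.3% of genes did. The medians of the 5 rises at 1 h and 2 h, 1.43 and 2.18, stood beside medians of 0.00 and -0.02 over all genes.

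**Figure D2:**
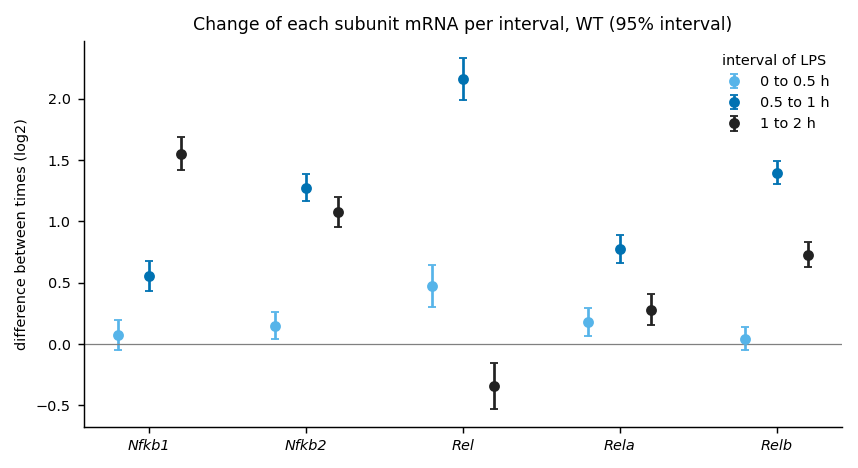
Difference in log2-scale level between successive WT time points for each subunit mRNA, with 95% intervals from limma. *Rel* gained 2.16 between 0.5 h and 1 h and then fell by 0.34, whereas *Nfkb1* gained 0.56 and then 1.55.

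Promoter sequence was read for the subunits that had an entry, to show where kappaB sites, the DNA elements that NF-kB itself binds, lie in genes that rose at different times. The 120 bases directly before the start site are printed 5′ to 3′ on the gene's strand, from RefSeq on GRCm38.p6, with matches to the kappaB consensus in capitals. The *Nfkb2* stretch is chr19:46304617-46304736 on the plus strand, inside the span annotated to the gene, and the *Rel* stretch is chr11:23770970-23771089 on the minus strand.
Nfkb2: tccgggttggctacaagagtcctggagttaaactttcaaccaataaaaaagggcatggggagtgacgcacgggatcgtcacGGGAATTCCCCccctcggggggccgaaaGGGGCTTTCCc
Rel: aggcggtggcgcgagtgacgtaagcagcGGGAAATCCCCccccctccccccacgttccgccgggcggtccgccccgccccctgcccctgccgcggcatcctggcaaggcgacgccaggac

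The kappaB consensus is a motif of 10 bases and was searched on both strands in windows from 250 bases before to 50 bases after each annotated start, where 8.46% of 32851 mouse promoters held at least 1 match. *Nfkb2* has more than 1 annotated start. From the start shown, 3 overlapping matches spanned positions -39 to -29, counted over both strands within 1 stretch of 11 bases. In that window 1 further match lay at -11 to -2, and the other start windows of *Nfkb2* also held matches. The *Rel* window held 3 overlapping matches at -92 to -82, again counted over both strands within 1 stretch of 11 bases. The *Rela* window held none, which says only that these letters are not in this window. A match is a description of sequence, and which start site was used in these cells was not measured. On this build *Nfkb1* is annotated at chr3:135584655-135691969, *Nfkb2* at chr19:46300994-46312400, *Rel* at chr11:23736847-23770969, *Rela* at chr19:5637442-5648134 and *Relb* at chr7:19606217-19629438.

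The subunits rose in the other arms as well. *Nfkb2*, *Rel* and *Relb* rose by at least 1 at 1 h in every arm, and all 5 subunits did so at 2 h in the 3 other arms sampled then. The rise of *Rel* at 1 h was 2.17 in *Map3k8* D270A/D270A, 2.39 in *Elk1*-/-*Elk4*-/-, 1.99 in *Nfkb1* SSAA/SSAA, 2.04 under PD0325901 and 2.00 under RSKi47, each with non-overlapping libraries and an adjusted p of 6.55e-27 or lower. At 1 h a rise of at least 1 was met by 2.82%, 2.73%, 2.61%, 2.99% and 2.35% of all genes in these arms, in the same order. At 2 h *Nfkb2* rose by 2.20 in *Map3k8* D270A/D270A, 2.35 in *Elk1*-/-*Elk4*-/- and 2.15 under RSKi47, arms in which 34.9%, 35.2% and 32.5% of genes rose and 7.03%, 7.31% and 5.6% rose by at least 1. All 5 subunits passed the test at 1 h in every arm, where the share of all genes that rose was 21.8% in *Map3k8* D270A/D270A, 16.6% in *Elk1*-/-*Elk4*-/-, 22.5% in *Nfkb1* SSAA/SSAA, 21.9% under PD0325901 and 15% under RSKi47.

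At 0.5 h the arms differed in which subunits passed. *Nfkb2* passed in *Nfkb1* SSAA/SSAA cells (0.29, adjusted p = 2.49e-06, no overlap), where 4 of 5 subunits did. None passed in *Map3k8* D270A/D270A by limma (5.08% of genes changed in either direction), although 2 had an unadjusted p under 0.05. *Rel* passed in all other arms, by 0.67 in *Elk1*-/-*Elk4*-/- (adjusted p = 2.88e-06, 3.22% of genes), 0.75 in *Nfkb1* SSAA/SSAA (adjusted p = 2.37e-09, 8.55% of genes), 0.54 under RSKi47 (adjusted p = 0.00422, 3.39% of genes) and 0.37 under PD0325901 (adjusted p = 0.0273, 9.38% of genes). *Relb* passed at this time in *Elk1*-/-*Elk4*-/- (0.20, adjusted p = 0.019) and *Nfkb1* SSAA/SSAA cells (0.23, adjusted p = 1.33e-04). *Nfkb2* in *Elk1*-/-*Elk4*-/- cells (0.20) passed only with all libraries in 1 fit (adjusted p = 0.0247), the fit used for *Nfkb1* SSAA/SSAA, or with the replicate number as a block (adjusted p = 0.0383). The *Rel* call was lost under PD0325901 without its library 1 or 2 (adjusted p = 0.116 and 0.247) and under RSKi47 without its library 1 (adjusted p = 0.0579). *Relb* in *Elk1*-/-*Elk4*-/- was lost without any of libraries 1, 2 and 4. *Rela* passed in *Elk1*-/-*Elk4*-/- (0.27, adjusted p = 0.00909), *Nfkb1* SSAA/SSAA (0.28, adjusted p = 6.94e-06) and RSKi47 (0.21, adjusted p = 0.046), was lost in *Elk1*-/-*Elk4*-/- without library 1, 2 or 3, and was lost under RSKi47 without any single library of that arm. By the test of the difference itself, over all libraries, none of the 5 subunits had a 0.5 h response that was called different from that of WT cells in any arm. Within WT 7 to 9 and *Map3k8* D270A/D270A 4 to 6, the *Rel* response was smaller (-0.53, adjusted p = 0.00476). At that time limma called 0.175% of all genes in *Map3k8* D270A/D270A, 0.109% in *Elk1*-/-*Elk4*-/-, 0.309% in *Nfkb1* SSAA/SSAA, 1.49% under PD0325901 and 0.0251% under RSKi47. Of the subunits, 1 had an unadjusted p under 0.05 in *Elk1*-/-*Elk4*-/- and 1 in *Nfkb1* SSAA/SSAA, and 0 did in the other arms.

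From 1 h to 2 h, *Nfkb1*, *Nfkb2*, *Rela* and *Relb* rose in every arm sampled, when 32.5% of genes rose in *Map3k8* D270A/D270A, 34.8% in *Elk1*-/-*Elk4*-/- and 29.3% under RSKi47. The arms differed in what *Rel* did. It fell by 0.34 in WT cells, differed by -0.22 in *Elk1*-/-*Elk4*-/- cells (adjusted p = 0.0584, with -0.30 and a p of 0.0342 without library 1, -0.29 and 0.0288 without library 2, and -0.11 and 0.427 without library 3) and by 0.10 in *Map3k8* D270A/D270A cells (adjusted p = 0.298), and rose by 0.32 under RSKi47 (SE 0.124, adjusted p = 0.0218, and 0.0817 without RSKi47 2). Tested against WT, the 1 h to 2 h change of *Rel* was 0.44 higher in *Map3k8* D270A/D270A (SE 0.152, adjusted p = 0.0366, when 5.38% of genes were higher, lost without WT 4, 5 or 6 or *Map3k8* D270A/D270A 2, 3, 5 or 6) and 0.66 higher under RSKi47 (SE 0.168, adjusted p = 0.00253, when 7.7% were). In *Elk1*-/-*Elk4*-/- cells the change of no subunit differed from that in WT (0 at an unadjusted p under 0.05, 12.9% of genes called). Within WT 7 to 9 and *Map3k8* D270A/D270A 4 to 6, the *Rel* value was 0.28 (adjusted p = 0.189). These comparisons were chosen after the levels had been seen. *Rela* gained 0.26 more than in WT between 1 h and 2 h in *Map3k8* D270A/D270A cells (SE 0.076, adjusted p = 0.0122). At 2 h *Rela* stood at 12.55 ± 0.18 (n = 6) in *Map3k8* D270A/D270A and 12.54 ± 0.16 (n = 4) in WT cells, means that mix replicate numbers unequally. Among lower replicate numbers (WT 4 to 6, *Map3k8* D270A/D270A 1 to 3) *Rela* was 0.09 higher in *Map3k8* D270A/D270A cells (adjusted p = 0.0213).

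*Map3k8* D270A/D270A cells were compared with WT to ask what TPL-2 catalytic activity contributes. Without LPS and at 0.5 h no subunit mRNA differed by limma, with 1 and 3 of the 5 at an unadjusted p under 0.05, when 1.44% and 1.37% of genes differed. At 1 h all 5 were lower than in WT cells, by 0.16 to 0.39, when 4.64% of genes were lower. At 2 h the precursor genes *Nfkb1* and *Nfkb2* were lower, whereas the differences of *Rel*, *Rela* and *Relb* did not pass.

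*Rel* at 1 h ranged from 11.20 to 11.38 with a median of 11.26 in *Map3k8* D270A/D270A cells, below all 6 WT libraries, and the difference was -0.39 (SE 0.084, adjusted p = 0.00102). *Nfkb2* ranged from 12.29 to 12.48 with a median of 12.38, against 12.48, 12.65 and 12.93 for the WT minimum, median and maximum, a difference of -0.30 (SE 0.055, adjusted p = 5.68e-05), and the ranges met at 12.48 without crossing. *Rela* (-0.26, SE 0.056, adjusted p = 9.74e-04), *Nfkb1* (-0.22, SE 0.060, adjusted p = 0.0115) and *Relb* (-0.16, SE 0.046, adjusted p = 0.0198) had overlapping ranges. At 2 h *Nfkb2* was -0.33 (SE 0.061, adjusted p = 2.49e-05) and *Nfkb1* -0.31 (SE 0.068, adjusted p = 3.35e-04) relative to WT, when 13.1% of genes were lower. The differences of *Rel* (0.06), *Rela* (0.00) and *Relb* (-0.11, adjusted p = 0.123) at 2 h did not pass, although *Relb* did without WT 7 (-0.14, adjusted p = 0.0487). *Relb* also passed with the replicate number across arms as a block (-0.16, adjusted p = 0.00506). At this time WT has 3 libraries of lower and 1 of higher replicate number, and *Map3k8* D270A/D270A 3 of each. Among the lower numbers (WT 4 to 6, *Map3k8* D270A/D270A 1 to 3) *Nfkb1* was -0.17 (adjusted p = 0.00185) and *Nfkb2* -0.24 (adjusted p = 0.00105), and among the higher numbers both were -0.34.

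The 1 h values depended on the replicate set as well, here the lower and the higher replicate numbers of each genotype, which the labels do not call batches. At 1 h, WT libraries 4 to 6 had higher means than libraries 7 to 9 for each subunit, for example 12.14 against 11.79 for *Nfkb1* and 11.80 against 11.55 for *Rel*. Set against *Map3k8* D270A/D270A libraries 1 to 3, the first WT set gave -0.52 for *Rel*, -0.42 for *Nfkb2* and -0.32 for *Nfkb1* (adjusted p = 1.36e-05). Against libraries 4 to 6, the second WT set gave -0.25 for *Rel* (adjusted p = 0.0255), -0.19 for *Nfkb2* (adjusted p = 0.018), -0.11 for *Nfkb1* (adjusted p = 0.151) and -0.05 for *Relb* (adjusted p = 0.64). The calls of *Nfkb1* and *Relb* were also lost without single libraries, *Nfkb1* without WT 4 or 6 (adjusted p = 0.0801 and 0.0759) and *Relb* without WT 4, 5 or 6 or *Map3k8* D270A/D270A 5 (adjusted p = 0.117, 0.0829, 0.0883 and 0.051). At 0.5 h, WT *Rel* itself split by set, with 9.12 to 9.32 in libraries 4 to 6 and 9.71 to 9.85 in libraries 7 to 9. There the difference from *Map3k8* D270A/D270A cells was 0.02 (adjusted p = 0.871) in the first set and -0.44 (adjusted p = 4.28e-04) in the second.

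**Figure D3:**
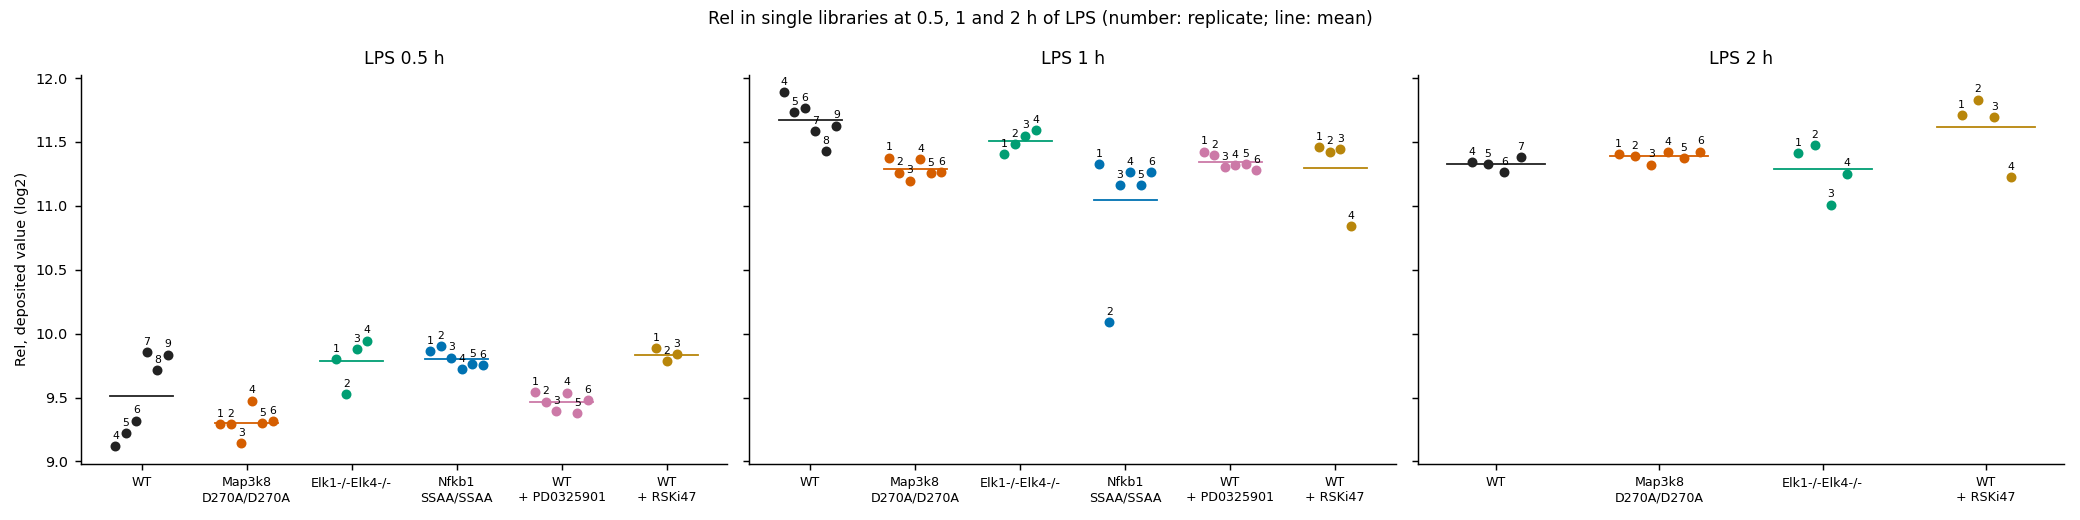
Deposited log2-scale level of *Rel* in each library at 0.5 h, 1 h and 2 h of LPS, by arm, with bars at group means and the replicate number above each point. WT libraries at 0.5 h fall into 9.12 to 9.32 and 9.71 to 9.85, library 2 of *Nfkb1* SSAA/SSAA at 1 h lies at 10.09 and library 4 of RSKi47 at 10.84.

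The responses themselves were compared as well, which removes any difference present without LPS. The 1 h response of *Nfkb2* was 0.28 smaller in *Map3k8* D270A/D270A than in WT cells (difference -0.28, SE 0.069, adjusted p = 0.009), when 1.56% of genes had a smaller response, and without WT 4 the difference was -0.21 (adjusted p = 0.125). Within WT 7 to 9 and *Map3k8* D270A/D270A 4 to 6 it was -0.17 (adjusted p = 0.371). For *Rel* it was -0.46 (adjusted p = 0.0641), which did not pass, although it did without WT 7 or 8 (adjusted p = 0.0372 and 0.0412). With the replicate number within each arm as a block, *Rel* (adjusted p = 0.0261), *Nfkb1* (-0.19, adjusted p = 0.0436) and *Rela* (-0.20, adjusted p = 0.0391) passed at 1 h as well. The 2 h responses of *Nfkb1* (-0.28, SE 0.080, adjusted p = 0.00692) and *Nfkb2* (-0.30, SE 0.073, adjusted p = 0.00129) were smaller too, when 9.46% of genes were. Within the first replicate set they were -0.14 (adjusted p = 0.0809) and -0.20 (adjusted p = 0.0506), and neither passed.

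In *Elk1*-/-*Elk4*-/- cells, *Nfkb2* and *Relb* were lower than in WT cells at every time, including without LPS, with no overlap between libraries. Their LPS responses were not found to differ from WT, and neither was that of any other subunit: of the 5, none passed at 0.5 h, 1 h or 2 h by limma, where 0.109%, 1.53% and 17.8% of genes did, and 1, 0 and 1 had an unadjusted p under 0.05.

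*Nfkb2* without LPS held 11.05, 11.06, 11.04 and 11.02 in *Elk1*-/-*Elk4*-/- cells against a WT range of 11.17 to 11.29, a difference of -0.20 (SE 0.061, adjusted p = 0.0043). It differed by -0.15 at 0.5 h (adjusted p = 0.0364), -0.35 at 1 h (adjusted p = 3.04e-06) and -0.36 at 2 h (SE 0.067, adjusted p = 1.27e-05), when the 4 libraries held 13.40, 13.40, 13.34 and 13.44. The 0.5 h call was lost without any of 6 single libraries. *Relb* without LPS held 9.47, 9.42, 9.51 and 9.43 against 9.74 to 9.91 in WT cells, a difference of -0.34 (SE 0.051, adjusted p = 2.57e-07). The later differences of *Relb* were -0.18 (adjusted p = 0.00335), -0.26 (adjusted p = 2.56e-05) and -0.25 (adjusted p = 1.51e-04) at 0.5 h, 1 h and 2 h.

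*Nfkb1* was lower in *Elk1*-/-*Elk4*-/- cells at 2 h (-0.28, SE 0.074, adjusted p = 0.00151, no overlap), and at 1 h it passed without WT 7 (-0.16, adjusted p = 0.0402). *Rela* was -0.18 at 1 h (adjusted p = 0.0146) and *Rel* 0.28 higher at 0.5 h (adjusted p = 0.0143, when 22.4% of genes were higher), both with overlapping ranges. The *Rela* call was lost without WT 4 or 6 or *Elk1*-/-*Elk4*-/- 4, and the *Rel* call without WT 4 or 5 or *Elk1*-/-*Elk4*-/- 4. The *Rel* mean of *Elk1*-/-*Elk4*-/- cells at 0.5 h was 9.79, against 9.22 in WT libraries 4 to 6 and 9.80 in WT libraries 7 to 9. Counts of lower subunits were thus 2, 2, 3 and 3 of 5 at 0 h, 0.5 h, 1 h and 2 h, where 24.6%, 22%, 26.2% and 23.1% of all genes were lower in this genotype. The neutrophil list, 7 genes such as *S100a9*, had a log2-scale sum of 10.0 to 11.0 in *Elk1*-/-*Elk4*-/- libraries and of 6.23 to 7.73 in WT libraries, with *Elane* near the floor in both. The macrophage list summed to 18.3 to 18.6 against 18.5 to 18.8 in WT libraries, and the 2 mast cell genes in the file (*Kit* highest) to 5.88 to 7.45 against 4.92 to 6.51. The part of these cell types in the differences of *Nfkb2* and *Relb* was not tested.

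**Figure D4:**
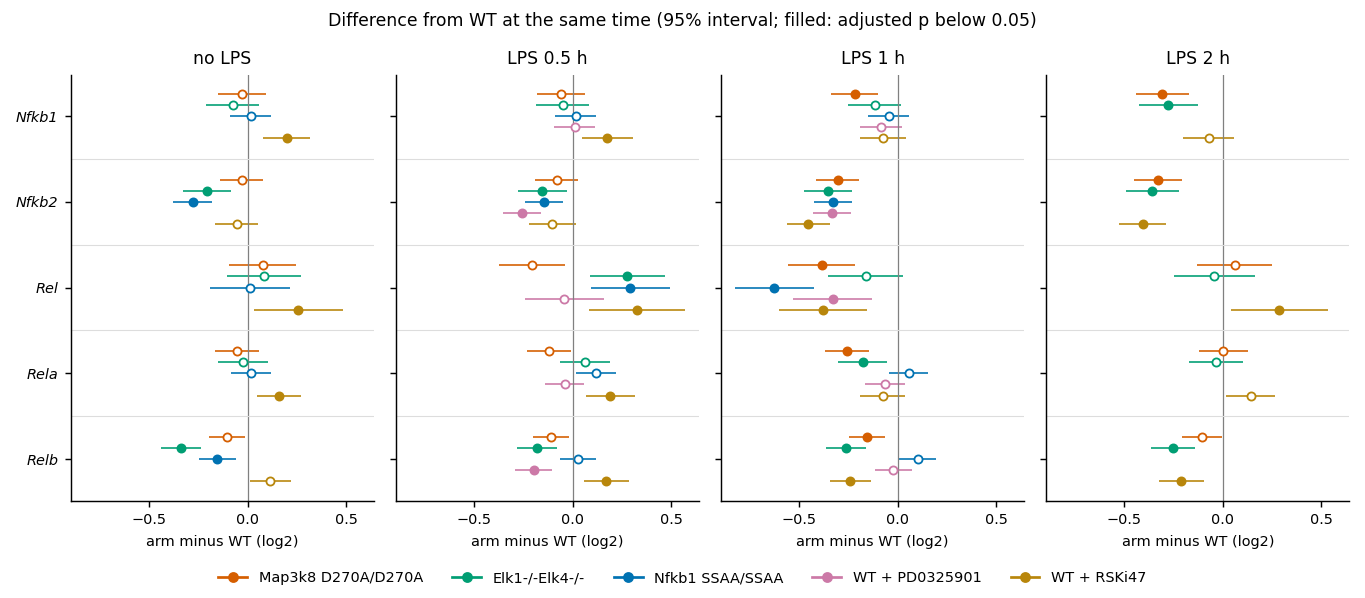
Difference of each subunit mRNA from WT cells at the same time of LPS, in log2-scale units, with 95% intervals from limma and filled points where the adjusted p is below 0.05. *Nfkb2* lies below WT in every arm at 1 h, from -0.30 in *Map3k8* D270A/D270A to -0.45 under RSKi47, whereas *Rel* lies from -0.33 to -0.63 in 4 arms and is not called in *Elk1*-/-*Elk4*-/-.

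*Nfkb1* SSAA/SSAA cells, in which p105 is not degraded upon stimulation, kept *Nfkb1* mRNA close to WT, with differences of 0.02, 0.02 and -0.05 without LPS, at 0.5 h and at 1 h, none of which passed. *Rela* did not pass at any of these times either, although at 0.5 h it was higher without WT 8 (adjusted p = 0.0495) or *Nfkb1* SSAA/SSAA 6 (adjusted p = 0.0378). *Nfkb2* was lower than in WT at all 3 times, and *Rel* was lower at 1 h. *Relb* was lower without LPS. At 1 h it did not pass over all libraries (0.10, adjusted p = 0.0753) but was higher without WT 4, 5 or 6 or *Nfkb1* SSAA/SSAA 3 or 5 (0.12 to 0.14). With the replicate number across arms as a block, *Nfkb1* mRNA was lower than in WT at 1 h (-0.14, adjusted p = 0.0204).

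*Rel* at 1 h held 11.33, 10.09, 11.16, 11.26, 11.16 and 11.27 in *Nfkb1* SSAA/SSAA libraries 1 to 6. All lay below the WT minimum of 11.43, and library 2 lay far below the other 5. The difference from WT was -0.63 (SE 0.101, adjusted p = 2.06e-07), and without library 2 it was -0.43 (adjusted p = 1.64e-05). At 0.5 h, *Rel* was 0.29 higher than in WT (adjusted p = 0.0186, when 16.7% of genes were higher), a call that was lost without WT 4, 5 or 6, the libraries with low *Rel* at that time. *Nfkb2* differed by -0.28 without LPS (SE 0.049, adjusted p = 2.69e-06, no overlap), by -0.14 at 0.5 h (adjusted p = 0.0163, lost without library 5 or 6) and by -0.33 at 1 h (SE 0.049, adjusted p = 2.18e-08). *Relb* differed by -0.15 without LPS (SE 0.047, adjusted p = 0.00745, lost without library 3). Counts of lower subunits were 2, 1 and 2 of 5 at the 3 times, where 15.1%, 15.6% and 21.9% of genes were lower.

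Responses in *Nfkb1* SSAA/SSAA cells differed from WT for a pair of transactivating subunits, in opposite directions. The 1 h response of *Rel* was smaller (difference -0.64, SE 0.143, adjusted p = 9.76e-04, when 4.3% of genes were), and without library 2 it was -0.46 (adjusted p = 0.00933). The 1 h response of *Relb* was 0.25 larger (SE 0.066, adjusted p = 0.0068, when 1.77% of genes were), and without library 2 it was 0.20 (adjusted p = 0.0754).

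Both genotypes block TPL-2 signalling, by catalytic inactivation or by retention on p105, and their subunit mRNAs were compared directly, although the labels do not say that they were prepared together. *Nfkb2* without LPS was -0.25 in *Nfkb1* SSAA/SSAA relative to *Map3k8* D270A/D270A cells (SE 0.049, adjusted p = 1.9e-05, no overlap), when 17.7% of genes were lower. At 0.5 h *Rel* was 0.50 higher (SE 0.101, adjusted p = 3.21e-05), *Rela* 0.24 higher (adjusted p = 7.04e-05) and *Relb* 0.14 higher (adjusted p = 0.0135), when 20.5% of genes were. At 1 h *Rela* was 0.31 higher (SE 0.051, adjusted p = 2.39e-07, no overlap), *Relb* 0.26 higher (adjusted p = 3.31e-06) and *Nfkb1* 0.17 higher (adjusted p = 0.00495), when 22.7% of genes were. *Rel* at 1 h was -0.24 (adjusted p = 0.042, when 24.6% of genes were lower), and -0.05 without *Nfkb1* SSAA/SSAA 2, and the call was also lost without *Map3k8* D270A/D270A 1, 2, 4, 5 or 6. The *Relb* call at 0.5 h was lost without *Nfkb1* SSAA/SSAA 1 (adjusted p = 0.0588).

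PD0325901 was used to block ERK1/2 activation with a drug. Without LPS, none of the 5 subunits differed between inhibitor and DMSO at 10 min by limma (0 of 5 at an unadjusted p under 0.05, and 0% of all genes passed), and none differed between 40 or 70 min and 10 min of inhibitor, when 3.58% and 6.09% of genes did (0 and 1 at an unadjusted p under 0.05). With LPS, *Nfkb2* was lower than in untreated WT cells at 0.5 h and 1 h, *Relb* at 0.5 h and *Rel* at 1 h.

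*Nfkb2* ranged from 11.06 to 11.24 with a median of 11.14 at 0.5 h and from 12.31 to 12.41 with a median of 12.33 at 1 h under PD0325901, below every WT library of the same time. The differences were -0.26 (SE 0.049, adjusted p = 2.11e-05) and -0.33 (SE 0.049, adjusted p = 2.63e-08). *Rel* at 1 h ranged from 11.28 to 11.42 with a median of 11.32, just below the WT minimum of 11.43, and differed by -0.33 (SE 0.101, adjusted p = 0.00713). *Relb* was -0.20 at 0.5 h (SE 0.047, adjusted p = 6.21e-04, no overlap), and its 1 h difference did not pass. The 2 lower subunits at each time stood against 15% and 19.3% of all genes lower. The 3 DMSO libraries without LPS held *Nfkb2* at 11.02, 11.05 and 11.02, which was -0.22 relative to WT without LPS (SE 0.060, adjusted p = 0.00429, no overlap), and *Relb* was -0.15 (adjusted p = 0.0449, lost without any of 6 single libraries), when 11.1% of genes were lower. Against its own unstimulated libraries, the 1 h response under PD0325901 differed from that of WT for *Rel* (-0.59, SE 0.160, adjusted p = 0.0159, when 2.48% of genes were smaller), and without PD0325901 library 2 the difference was -0.55 (adjusted p = 0.0958). How many cultures lay behind the 6 libraries is not in the labels. The log2-scale sum of the neutrophil list was 7.28 to 8.81 in PD0325901, 7.53 to 8.24 in DMSO, 7.08 to 8.59 in RSKi47, 6.72 to 8.34 in *Nfkb1* SSAA/SSAA and 6.23 to 7.73 in WT libraries, and its part in the results of these arms was not tested.

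RSKi47 gave a mixed picture over time. Without LPS, *Nfkb1*, *Rel* and *Rela* were higher than in untreated WT cells, and at 0.5 h *Relb* was as well. At 1 h and 2 h *Nfkb2* and *Relb* were lower, and *Rel* was lower at 1 h and higher at 2 h. The responses of *Nfkb1*, *Nfkb2* and *Relb* were smaller than in WT at both 1 h and 2 h. These responses set RSKi47 with LPS against 10 min of RSKi47 without LPS, so a longer time of inhibitor is part of them.

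*Nfkb2* at 1 h held 12.17, 12.28, 12.28 and 12.15 under RSKi47, all below the WT minimum of 12.48, and differed by -0.45 (SE 0.055, adjusted p = 1.56e-11), when 26.3% of genes were lower. At 2 h it held 13.32, 13.44, 13.43 and 13.19, all below the 4 WT libraries, and differed by -0.41 (SE 0.060, adjusted p = 1.01e-08), when 24.6% of genes were lower. *Relb* differed by -0.24 at 1 h (SE 0.052, adjusted p = 5.7e-05) and by -0.21 at 2 h (SE 0.057, adjusted p = 0.00126), when its libraries at 11.80, 11.76, 11.86 and 11.61 did not overlap those of WT. At 0.5 h *Nfkb2* had differed by -0.10 (adjusted p = 0.144).

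*Rel* at 1 h held 11.46, 11.43, 11.44 and 10.84, with library 4 apart from the others. The difference from WT was -0.38 (SE 0.113, adjusted p = 0.00332), and without library 4 it was -0.23 (adjusted p = 0.0853). At 2 h *Rel* held 11.71, 11.83, 11.70 and 11.22, again with library 4 low, and differed by 0.29 (SE 0.124, adjusted p = 0.0445, when 27.5% of genes were higher), or by 0.42 (adjusted p = 0.00288) without library 4. The 2 h call was lost without WT 4, 5 or 6 or RSKi47 1, 2 or 3. Over all libraries it was also lost with no filter on low values (adjusted p = 0.0628) and with median centring (adjusted p = 0.0704). *Rela* at 2 h differed by 0.14 (adjusted p = 0.05) with library 4 and by 0.21 (adjusted p = 0.00414) without it, and it also passed without WT 5, 6 or 9. Without LPS, *Nfkb1* was 0.20 higher (SE 0.059, adjusted p = 0.00323), *Rela* 0.16 higher (SE 0.057, adjusted p = 0.0139) and *Rel* 0.26 higher (SE 0.113, adjusted p = 0.0471), when 26.8% of genes were higher. Library 4 held *Rel* at 9.07 and the others at 9.33 to 9.42, and without it the difference was 0.33 (adjusted p = 0.011). The *Rel* call was lost without WT 5, 6, 8 or 9 or RSKi47 1, 2 or 3, and the *Rela* call without RSKi47 1 (adjusted p = 0.0513). At 0.5 h *Nfkb1*, *Rel*, *Rela* and *Relb* were 0.18, 0.33, 0.19 and 0.17 higher (adjusted p = 0.02, 0.0231, 0.00807 and 0.0107), when 23.7% of genes were. Here *Rel* was lost without WT 4, 5 or 6 or RSKi47 1 or 3, and *Nfkb1* and *Rela* without RSKi47 3 (adjusted p = 0.0905 and 0.0507). The fibroblast list, 4 genes such as *Col1a2*, had a log2-scale sum of 4.94 to 9.41 in RSKi47 libraries and of 3.69 to 4.78 in WT libraries, and its part in these results was not tested.

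Compared with WT, the 1 h response under RSKi47 was smaller by 0.40 for *Nfkb2* (difference -0.40, SE 0.077, adjusted p = 1.51e-04), and differed by -0.36 for *Relb* (SE 0.074, adjusted p = 4.56e-04), -0.64 for *Rel* (SE 0.160, adjusted p = 0.00514) and -0.27 for *Nfkb1* (SE 0.084, adjusted p = 0.0328), 4 of 5 subunits when 3.27% of genes had a smaller response. Without library 4 the *Rel* value was -0.56. The *Nfkb1* value at 1 h lost its call without any single one of WT 4, 5 or 6 or RSKi47 1 to 4. The 2 h responses differed by -0.35 for *Nfkb2* (SE 0.081, adjusted p = 5.34e-04), -0.33 for *Relb* (SE 0.078, adjusted p = 8.58e-04) and -0.27 for *Nfkb1* (SE 0.088, adjusted p = 0.0182), when 10.4% of genes were smaller, and without library 4 the *Nfkb1* value was -0.23 (adjusted p = 0.0814).

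**Figure D5:**
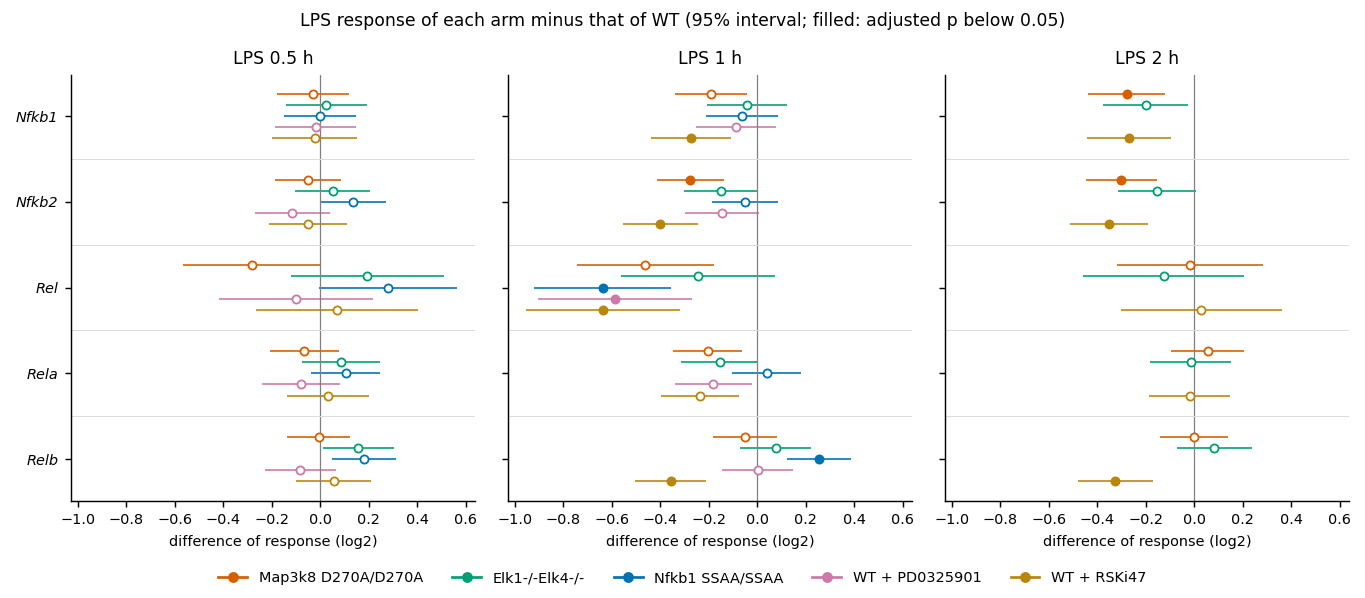
LPS response of each arm minus that of WT cells for each subunit mRNA, in log2-scale units, with 95% intervals from limma and filled points where the adjusted p is below 0.05. No point is filled at 0.5 h, *Rel* is at -0.64 in *Nfkb1* SSAA/SSAA and under RSKi47 and at -0.59 under PD0325901 at 1 h, and *Nfkb2* lies at -0.30 and -0.35 at 2 h in *Map3k8* D270A/D270A and under RSKi47.

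Set side by side, *Nfkb2* was the subunit that was lower than WT in all 5 arms at 1 h, at -0.30, -0.35, -0.33, -0.33 and -0.45 in *Map3k8* D270A/D270A, *Elk1*-/-*Elk4*-/-, *Nfkb1* SSAA/SSAA, PD0325901 and RSKi47. Already without LPS, *Nfkb2* was lower than in WT in *Elk1*-/-*Elk4*-/-, *Nfkb1* SSAA/SSAA and DMSO libraries. Its 1 h response was called smaller than that of WT only in *Map3k8* D270A/D270A and under RSKi47. The group means at 1 h in these 5 arms lay between 12.22 and 12.37, and WT stood above them at 12.67 ± 0.19. In the order of levels at 1 h, neighbouring arms below WT overlapped, so that no order is read among them. *Rel* at 1 h was highest in WT (11.67 ± 0.16), followed by *Elk1*-/-*Elk4*-/- (11.51 ± 0.08), whose 4 libraries at 11.40, 11.49, 11.55 and 11.59 overlapped those of WT. These comparisons share the WT libraries, so their common direction is not independent evidence.

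The genes around the subunits were taken from a list of 43 regulators of NF-kB, from receptors and adaptors to IkB proteins, all of which passed the filter. In WT cells 15, 28 and 34 of the 43 rose at 0.5 h, 1 h and 2 h, and 1, 5 and 6 fell, with medians of 0.07, 0.33 and 0.89. Of all genes, 7.82%, 23.8% and 34.7% rose and 3.81%, 23% and 36.8% fell at these times. At 1 h, 10 of 11 inhibitors and partners rose and none fell, as did 3 of 5 genes of p105 processing, whereas of 9 kinases 5 rose and 2 fell. The largest rises at 0.5 h were of inhibitors: *Nfkbiz*, which encodes the nuclear protein IkB-zeta, rose by 3.38 and *Nfkbia*, which encodes IkB-alpha, by 3.17 at 0.5 h. *Nfkbiz* rose by 4.49 and *Tnfaip3*, which encodes the ubiquitin editor A20, by 3.88 at 1 h, and *Cd40*, a receptor of the second NF-kB pathway, by 4.90 at 2 h. The falls were smaller, with *Tab1*, an adaptor of the TAK1 kinase, at -1.19 and the LPS receptor *Tlr4* at -0.79 at 2 h.

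Between genotypes, 9 of the 43 were lower than in WT and none was higher in *Map3k8* D270A/D270A cells at 1 h, and 17 were lower and 7 higher at 2 h. Of all genes, 4.64% were lower and 5.14% higher at 1 h, and 13.1% were lower and 14.6% higher at 2 h. *Nfkbid*, which encodes IkB-NS, was -0.62 at 1 h (adjusted p = 2.83e-04), and it was the most reduced of the list at 1 h in *Elk1*-/-*Elk4*-/- (-1.45), *Nfkb1* SSAA/SSAA (-0.81) and PD0325901 (-0.67) as well. At 2 h *Bcl3*, a nuclear partner of p50 and p52, was -0.67 in *Map3k8* D270A/D270A cells and -1.22 under RSKi47. *Map3k14*, which encodes the kinase NIK that triggers p100 processing, was 0.46 higher in *Map3k8* D270A/D270A at 2 h, but -0.52 in *Elk1*-/-*Elk4*-/- and -0.64 under PD0325901 at 1 h. At 1 h the counts of lower and higher genes of the 43 were 16 and 8 in *Elk1*-/-*Elk4*-/-, 18 and 3 in *Nfkb1* SSAA/SSAA, 13 and 1 under PD0325901, and 17 and 6 under RSKi47. The shares of all genes lower and higher were 26.2% and 27.2%, 21.9% and 20.5%, 19.3% and 16.4%, and 26.3% and 26.5% in these arms.

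Across the 25 group means, the subunits followed each other to unequal degrees. *Nfkb2* and *Relb* had a Pearson correlation of 0.98, as did *Rela* and *Relb*, whereas *Nfkb1* and *Rel* had 0.75. Among the 11971 genes tested, the patterns most like that of *Nfkb1* were those of *Pstpip2* (0.992), *Il27* and *Socs1* (both 0.989), and for *Nfkb2* those of *Jdp2* (0.992), *Clic4* (0.991) and *Exoc3l4* (0.989). For *Rel* they were *Icosl* (0.988), *Itga5* (0.987) and *Pvr* (0.986), for *Rela* *Ptpn23* (0.988), *Irg1* (0.988) and *Tlr2* (0.987), and for *Relb* *Stx11* and *Orai2* (both 0.991) and *Tnip1* (0.989). These values describe shared time courses over groups that share experiments.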

How the data were processed

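The data were RNA-seq libraries of mouse BMDMs in 1 table of 18098 genes. Per the submitters' processing notes the tools were STAR 2.5.1b, RSEM 1.2.29 and DESeq2 1.10.1 with build mm10. The deposited values are on a log2 scale (-2.40 to 19.8) after normalisation by the authors, and their exact transformation is unknown here, as is depth, so no counting interval is given and no pseudocount was added. Differences between libraries may be compressed relative to log2 ratios of counts. One value of 1 gene outside the 5 subunits, above 25, was treated as missing, and its library was dropped for that gene.

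Comparisons among the cells with TPL-2 mutation, TCF deletion and neither, untreated with inhibitor, used limma 3.58.1 (R 4.3.3) on 62 libraries and 11884 genes that reached 10 after conversion to linear values in 4 or more libraries. All other comparisons, and all differences of response, used every library and 11971 genes (10 reached in 3 or more). Each group had its own mean and no covariate was fitted. P-values were two-sided and adjusted by Benjamini-Hochberg over all genes of the fit, with 0.05 as threshold, and a difference of 1 was applied as a second rule. The scripts were tested on simulated data.

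The named genes were the 5 subunits, the 3 genes most correlated with each over group means, and for the regulator list the 2 largest changes in each direction of a comparison. Members and lists were chosen with earlier results of these data known. Same-numbered libraries deviated together in all 30 pairs of WT times (r 0.16 to 0.79) and all 18 pairs of *Nfkb1* SSAA/SSAA times, so the replicate number pairs those time courses. In *Map3k8* D270A/D270A the 36 pairs had r of 0.07 to 0.76 (median 0.42), and under RSKi47 the 21 pairs had 0.07 to 0.70 (median 0.32). In *Elk1*-/-*Elk4*-/- and under PD0325901 the lowest r was negative (-0.22 and -0.27). Between WT and *Map3k8* D270A/D270A all 12 pairs had negative r (-0.45 to -0.06). Alternatives were 1 fit of all libraries, no filter, median centring, a variance trend with robust estimation, the replicate block, replicate sets, leaving out each replicate, and, chosen after seeing the data, the 2 h against 1 h comparisons outside WT and omission of *Nfkb1* SSAA/SSAA 2 and RSKi47 4 together. The block was the replicate number within each arm for responses to LPS, and the number across arms for comparisons between arms.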

Additional observations from a re-analysis of the deposited data

Results flagged for a closer look

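In 10 of 100 combinations of a subunit and a group of 4 to 6 libraries, 1 library lay far from the others (Dixon's test, which chance meets in about 1 of 20). *Rel* was 10.09 in *Nfkb1* SSAA/SSAA library 2 at 1 h (others 11.16 to 11.33) and 10.84 in RSKi47 library 4 at 1 h (others 11.43 to 11.46). *Nfkb1* was 11.81 in RSKi47 library 4 at 1 h (others 11.91 to 11.92), 11.27 in WT library 7 without LPS (others 11.33 to 11.36), 13.37 in WT library 7 at 2 h (others 13.56 to 13.57), 11.43 in *Elk1*-/-*Elk4*-/- library 4 at 0.5 h and 11.52 in *Nfkb1* SSAA/SSAA library 4 without LPS (others 11.29 to 11.35). *Nfkb2* was 12.42 and *Relb* 11.30 in PD0325901 library 4 at 1 h. *Rela* was 11.47 in *Elk1*-/-*Elk4*-/- library 4 at 0.5 h, below the others.

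Of 80 tests of a difference in response between an arm and WT, 16 passed, in comparisons where 1.56% to 10.4% of all genes did in the same direction. In *Map3k8* D270A/D270A cells they were *Nfkb2* at 1 h (-0.28, lost within the second replicate set), *Nfkb1* (-0.28) and *Nfkb2* (-0.30) at 2 h (both lost within the first), and the 1 h to 2 h change of *Rel* (0.44, lost within the second replicate set) and *Rela* (0.26). In *Nfkb1* SSAA/SSAA cells they were *Rel* (-0.64) and *Relb* (0.25) at 1 h, and under PD0325901 *Rel* at 1 h (-0.59). Under RSKi47 they were *Nfkb1* (-0.27), *Nfkb2* (-0.40), *Rel* (-0.64) and *Relb* (-0.36) at 1 h, *Nfkb1* (-0.27), *Nfkb2* (-0.35) and *Relb* (-0.33) at 2 h, and the 1 h to 2 h change of *Rel* (0.66).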

How the results depend on the processing

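Over the settings tried, no value of a subunit changed direction after being called, and of the alternative values 4105 kept their side of the threshold, 120 lost and 70 gained a call; the cause was not tested unless fewer libraries entered. Requiring a difference of at least 1 left 0 subunits in each comparison with WT, in each difference of response and at 0.5 h of LPS, and 3 of 5 at 1 h. With the replicate number across arms as a block, lower subunits in *Map3k8* D270A/D270A went from 0 to 2 without LPS and from 0 to 4 at 0.5 h. They went from 2 to 4 without LPS in *Elk1*-/-*Elk4*-/- and at 1 h under PD0325901. Under RSKi47 they went from 0 to 1 without LPS and at 0.5 h and from 3 to 5 at 1 h. For responses the block was the replicate number within each arm. With it, smaller responses went from 1 to 4 at 1 h in *Map3k8* D270A/D270A. There *Rel* (-0.46, adjusted p = 0.0261), *Nfkb1* (-0.19, adjusted p = 0.0436) and *Rela* (-0.20, adjusted p = 0.0391) gained a call. In *Elk1*-/-*Elk4*-/- smaller responses went from 0 to 1 at 2 h. With the block across arms, the higher values under RSKi47 without LPS lost their calls for *Nfkb1* (0.08, adjusted p = 0.256) and *Rela* (0.05, adjusted p = 0.453). At 0.5 h *Nfkb1* (0.05, adjusted p = 0.522), *Rela* (0.07, adjusted p = 0.359) and *Relb* (0.08, adjusted p = 0.253) lost theirs. *Rel* without LPS lost its call with no filter (adjusted p = 0.0657). With the block across arms, *Nfkb1* in *Elk1*-/-*Elk4*-/- cells was lower without LPS (-0.22), at 0.5 h (-0.19) and at 1 h (-0.26) as well. So were *Nfkb1* in *Nfkb1* SSAA/SSAA cells at 1 h (-0.14, adjusted p = 0.0204) and *Relb* in *Map3k8* D270A/D270A cells at 2 h (-0.16, adjusted p = 0.00506). With no filter, the calls of *Rel* at 1 h in *Nfkb1* SSAA/SSAA against *Map3k8* D270A/D270A (adjusted p = 0.0587) and of its 1 h to 2 h change in *Map3k8* D270A/D270A against WT (adjusted p = 0.0522) were lost. With centring, *Rela* at 0.5 h (adjusted p = 0.0452) and *Relb* at 1 h (adjusted p = 0.0469) were higher in *Nfkb1* SSAA/SSAA than in WT. Numbers shared between arms did not pair their libraries, which concerns the block across arms and not the block within arms. The rise at 0.5 h under RSKi47 counted 1 in place of 2 with the block within arms, with no filter and with centring. It did so too without *Nfkb1* SSAA/SSAA 2 and RSKi47 4 together. Lower subunits at 0.5 h in *Elk1*-/-*Elk4*-/- counted 1 in place of 2 with no filter. Within the first replicate set of WT and *Map3k8* D270A/D270A libraries, 1 subunit of the latter rose at 0.5 h, and 4 responses at 1 h and 0 at 2 h were smaller than in WT. Within the second set, 2 subunits were lower at 0.5 h and 3 at 1 h, with 1 smaller response at 0.5 h and 0 at 1 h. Leaving out single replicates gave 1 to 2 rises at 0.5 h in WT and in *Elk1*-/-*Elk4*-/- cells, and 0 to 1 under PD0325901 and RSKi47. Lower subunits then ranged from 3 to 5 at 1 h and 2 to 3 at 2 h in *Map3k8* D270A/D270A, 1 to 2 at 0.5 h and 2 to 4 at 1 h in *Elk1*-/-*Elk4*-/-, 1 to 2 without LPS and 0 to 1 at 0.5 h in *Nfkb1* SSAA/SSAA, and 2 to 3 at 1 h under RSKi47. Smaller responses ranged from 0 to 3 at 1 h in *Map3k8* D270A/D270A, 0 to 1 under PD0325901, and under RSKi47 3 to 5 at 1 h and 2 to 3 at 2 h. The depth of each library is unknown, and differences not detected here are not shown to be absent.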
